A study of Arabidopsis thaliana with 4 samples.

Results

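Flavonoid and anthocyanin synthesis was described by 10 genes, chosen by locus from the 27322 gene models measured: the enzyme genes CHS, CHI, F3H, F3'H, FLS1, DFR and LDOX, and the MYB transcription factor genes MYB11, MYB12 and PAP1. RNA came from inflorescence shoot apices of Arabidopsis thaliana plants at 6 weeks, with older flowers removed. The plants were grown in a greenhouse at 22°C under 16 h of light and 8 h of dark. Stratification, shared by both genotypes, was for 2 days at 4°C. The mutant line, mp clv3 (mp319 clv3-7), carried mutations in MP, an auxin response factor gene, and in CLV3, the gene of a stem cell signalling peptide. Its comparison was Col-0, the wild type (WT). The labels name no agent for either genotype and do not give the number of plants per sample. The labels give 2 biological replicates of each genotype, but the measurements were 1 read number and 1 RPKM value (reads scaled to the length of the gene model and to the total of reads) per genotype, with totals of 103347441 reads for mp clv3 and 101878433 for WT. No difference therefore had a replicate check, and the 95% intervals in parentheses cover counting error only. Apices of both genotypes held transcripts of the shoot meristem gene STM, at 217 RPKM in mp clv3, against 68.8 RPKM in WT.

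Flavonoids are built from a phenylpropanoid precursor and malonyl-CoA. Chalcone synthase, chalcone isomerase and the flavanone and flavonoid hydroxylases make dihydroflavonols, which flavonol synthase turns into flavonols and which dihydroflavonol reductase and leucoanthocyanidin dioxygenase turn towards anthocyanins. In Arabidopsis, MYB11, MYB12 and MYB111 activate the early and flavonol genes, while PAP1 and its relatives act with bHLH and WD40 partners on the late, anthocyanin genes. Flavonols protect against ultraviolet light and are deposited on pollen.

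The early and flavonol genes differed in the opposite direction to the late genes. In mp clv3 the genes up to and including flavonol synthase were lower, from 1.48-fold for CHS to 19.4-fold for F3'H, whereas the late genes DFR and LDOX were higher, 8.80-fold and 2.39-fold, from low levels in WT. A gene was called where the authors' deposited table gave an FDR under 0.05 together with at least a 2-fold difference in RPKM. By that rule 2 of the 10 genes were higher (DFR and LDOX), against 9.85% of all models, and 4 were lower (CHI, F3H, F3'H and FLS1), against 21.3% of all models. Among models with 1 RPKM or more in a genotype, those shares were 11.0% and 18.6%. By FDR alone 3 of the 10 genes were higher, against 31.3% of models, and 6 were lower, against 43.5%. CHS, MYB11, MYB12 and PAP1 did not meet both criteria. The median log2 ratio of the 10 genes was -0.71, beside -0.15 over all models above the floor of 6 reads. The 7 enzyme genes together summed to 276 RPKM in mp clv3, against 563 RPKM in WT.

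Marker genes of other tissues differed as well. All 13 tapetum markers were called lower, summing to 21.0 RPKM in mp clv3, against 935 RPKM in WT, with DYT1, MYB80 and MS2 at 0 reads in mp clv3. The petal and stamen identity genes AP3 and PI summed to 1.41 RPKM in mp clv3, against 193 RPKM in WT. The 5 epidermis markers summed to 351 RPKM in mp clv3, against 1241 RPKM in WT, with 3 called lower, and the 5 markers of green tissue to 3445 RPKM in mp clv3, against 8695 RPKM in WT, with 3 called lower. Of the 4 shoot meristem genes, 3 were called higher, and their sum was 308 RPKM in mp clv3, against 104 RPKM in WT. The part of these tissues in the lower flavonol genes was not tested. In whole apices, fewer cells of a type and less RNA per cell cannot be told apart.

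CHS, CHI and F3H, which act in sequence at the start of the pathway, were each lower in mp clv3. CHS (AT5G13930) encodes chalcone synthase, the entry enzyme, and lies on chromosome 5 (4488476 to 4490264, plus strand, 2 exons; all positions are those of TAIR10.1). CHS gave 31310 reads (203 RPKM) in mp clv3, against 45552 (300 RPKM) in WT, 1.48-fold lower (1.45 to 1.51). It was the most abundant of the 10 transcripts in both genotypes, above 98.1% of all models in mp clv3 and 98.6% in WT, and its difference was the smallest among the enzyme genes. CHI, the chalcone isomerase gene (AT3G55120, chromosome 3, 20430059 to 20431597, minus strand, 4 exons), was at 19.4 RPKM in mp clv3, against 39.2 RPKM in WT, 2.02-fold lower (1.86 to 2.18). That value sat at the 2-fold line: with TMM scaling the log2 ratio of CHI was -0.92 and the gene was no longer called. F3H, the flavanone 3-hydroxylase gene (AT3G51240, chromosome 3, 19025192 to 19026872, plus strand, up to 4 exons), measured 20.3 RPKM in mp clv3, against 58.4 RPKM in WT, 2.87-fold lower (2.71 to 3.04). An annotated opposite-strand non-coding gene, AT3G51238, shares 1588 bases with F3H, and whether the counting separated strands is not stated. The 250 bases before the annotated start of CHS (chr5:4488226-4488475, plus strand, TAIR10.1) are shown for the entry step. Capitals mark the G-box CACGTG, any ACGT core, and the MYB motifs ACCNACC and ACCNAAC, on either strand.
CHS: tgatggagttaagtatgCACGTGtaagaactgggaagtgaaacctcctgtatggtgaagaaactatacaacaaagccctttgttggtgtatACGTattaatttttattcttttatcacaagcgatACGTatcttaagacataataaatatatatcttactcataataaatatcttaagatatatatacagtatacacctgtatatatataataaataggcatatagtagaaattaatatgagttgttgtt
The CHS window held 3 ACGT cores, 1 of them within a G-box, and neither MYB motif. Bases downstream of the annotated start were not searched.

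F3'H and FLS1 had the largest falls. F3'H encodes the flavonoid 3'-hydroxylase, a cytochrome P450 that sets the quercetin and cyanidin pattern of the ring (AT5G07990, chromosome 5, 2560328 to 2563137, plus strand, 4 exons). F3'H had 227 reads in mp clv3, against 4348 in WT. In RPKM this was 1.20 in mp clv3 and 23.3 in WT, 19.4-fold lower (16.0 to 23.6), so F3'H fell to the level range of DFR and LDOX in the mutant. Only 3.37% of models above the floor had a log2 ratio as low as or lower than that of F3'H. FLS1, the main flavonol synthase gene (AT5G08640, chromosome 5, 2803833 to 2805606, plus strand, up to 4 exons), gave 4034 reads (29.3 RPKM) in mp clv3, against 19228 (141 RPKM) in WT, 4.84-fold lower (4.61 to 5.08). FLS1 ranked just below CHS in both genotypes. The windows before both starts are printed because these are the genes with the largest falls (F3'H, chr5:2560078-2560327; FLS1, chr5:2803583-2803832; both on the plus strand).
F3'H: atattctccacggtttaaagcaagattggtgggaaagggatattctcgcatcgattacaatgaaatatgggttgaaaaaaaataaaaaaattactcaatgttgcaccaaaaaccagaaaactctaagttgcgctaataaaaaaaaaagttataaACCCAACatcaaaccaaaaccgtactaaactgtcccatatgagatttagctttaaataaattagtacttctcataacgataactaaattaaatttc
FLS1: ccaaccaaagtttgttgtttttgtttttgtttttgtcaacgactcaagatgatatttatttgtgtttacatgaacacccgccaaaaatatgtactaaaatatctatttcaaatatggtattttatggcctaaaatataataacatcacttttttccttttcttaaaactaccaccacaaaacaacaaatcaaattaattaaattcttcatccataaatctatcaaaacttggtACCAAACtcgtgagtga
Each held a single ACCNAAC motif and no ACGT core.

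DFR and LDOX, the late genes, were higher in mp clv3 but remained low. DFR encodes dihydroflavonol 4-reductase, which commits dihydroflavonols to anthocyanins and proanthocyanidins (AT5G42800, chromosome 5, 17164093 to 17166032, minus strand, 6 exons). DFR had 125 reads in mp clv3, against 14 in WT. The levels were 0.891 RPKM in mp clv3 (0.684 to 1.14) and 0.101 RPKM in WT (0.0407 to 0.208), 8.80-fold higher (4.06 to 23.0), with an FDR of 5.63e-23 in the authors' deposited table. The width of this interval comes from the 7 read pairs behind the WT value. LDOX, the leucoanthocyanidin dioxygenase gene (AT4G22880, chromosome 4, 12004726 to 12006209, minus strand, up to 3 exons), had 262 reads in mp clv3, against 108 in WT. Its levels were 2.02 RPKM in mp clv3, against 0.843 RPKM in WT, 2.39-fold higher (1.73 to 3.35), with an FDR of 2.42e-15 in the authors' deposited table. With a pseudocount of 1 RPKM neither gene reached 2-fold, at log2 ratios of 0.78 for DFR and 0.71 for LDOX. The windows before both starts are given for comparison with those of the early genes (DFR, chr5:17166033-17166282; LDOX, chr4:12006210-12006459; both on the minus strand and printed in the direction of transcription).
DFR: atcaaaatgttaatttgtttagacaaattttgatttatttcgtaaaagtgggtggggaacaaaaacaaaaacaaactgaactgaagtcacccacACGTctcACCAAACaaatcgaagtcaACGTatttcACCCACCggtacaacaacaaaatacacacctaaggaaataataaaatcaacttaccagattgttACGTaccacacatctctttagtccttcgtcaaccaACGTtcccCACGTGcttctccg
LDOX: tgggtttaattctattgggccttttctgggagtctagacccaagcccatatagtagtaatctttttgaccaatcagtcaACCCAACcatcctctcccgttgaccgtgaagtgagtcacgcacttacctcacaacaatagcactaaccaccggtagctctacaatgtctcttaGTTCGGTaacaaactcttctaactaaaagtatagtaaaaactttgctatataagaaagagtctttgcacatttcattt
The DFR window held both MYB motifs and 5 ACGT cores, 1 of them in a G-box, and the LDOX window held 2 ACCNAAC motifs and no ACGT core.

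**Figure D1:**
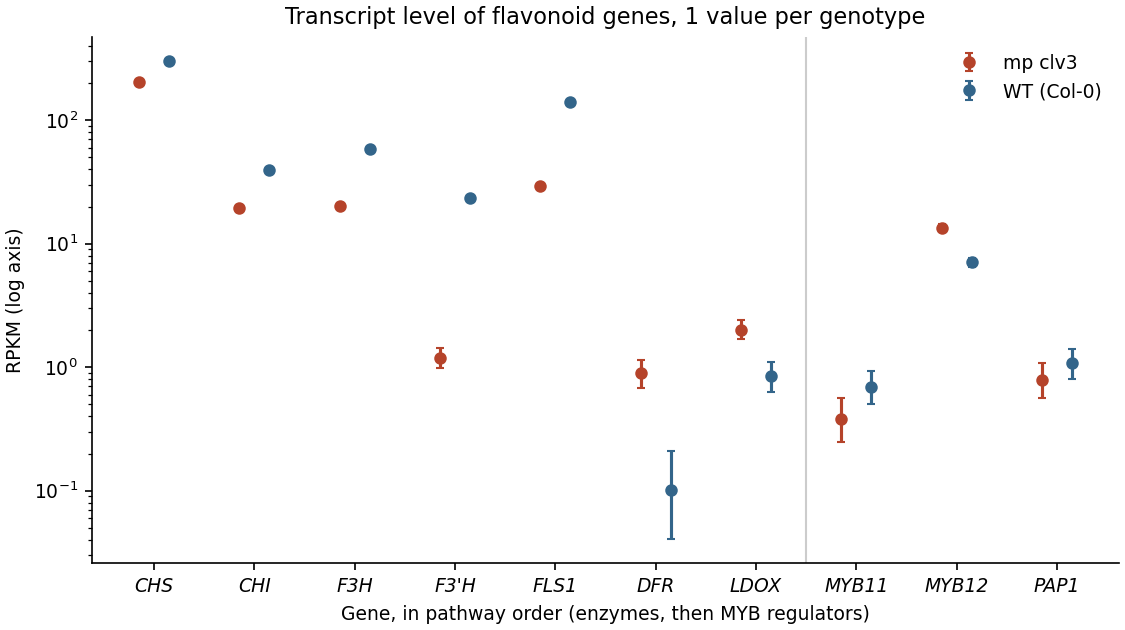
RPKM of each gene on a log axis, in pathway order, with mp clv3 (red) left of WT (blue). Points are the single value per genotype and bars are exact 95% Poisson intervals on read pairs (counting error only, hidden by the point where narrow). The mp clv3 point lies lower for the 5 genes from CHS to FLS1 and for MYB11 and PAP1, and higher for DFR (0.891 against 0.101 RPKM), LDOX and MYB12.

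FLS1 and DFR use the same dihydroflavonol substrates, so their transcript levels were set against each other within each genotype. FLS1 exceeded DFR 32.9-fold per length in mp clv3 (25.4 to 42.6) and 1398-fold in WT (678 to 3478). The WT ratio was 42.6 times the mp clv3 ratio (19.6 to 111), and the counting intervals of the genotypes did not overlap. With 1 RPKM added to each level, the ratios were 16.0 in mp clv3 and 129 in WT. Both the lower FLS1 and the higher DFR entered this shift. In either genotype FLS1 stayed the more abundant transcript.

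**Figure D2:**
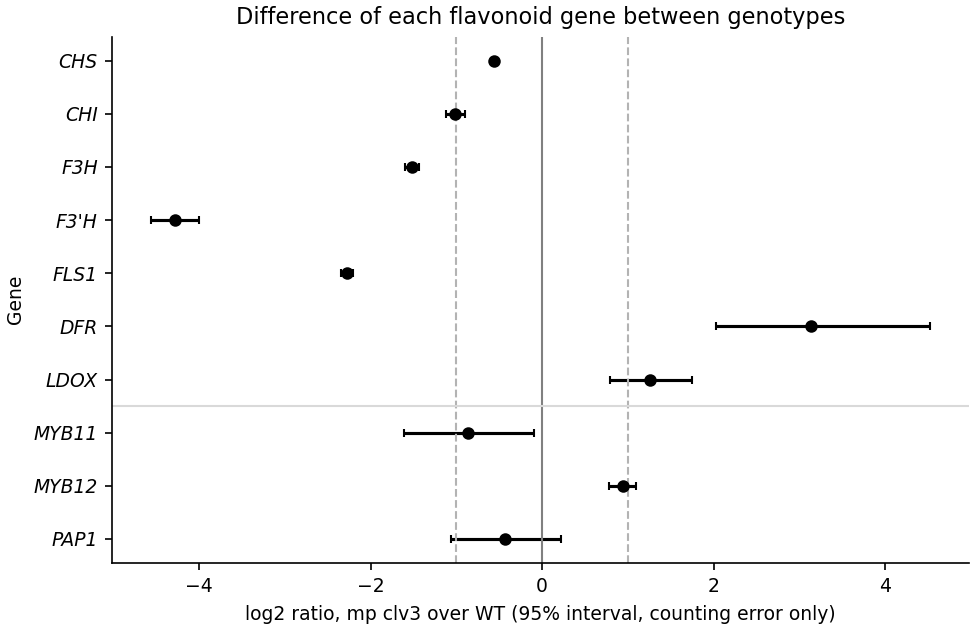
The log2 ratio of mp clv3 over WT for each gene, with its exact 95% interval from read pairs (counting error only). Dashed lines mark 2-fold. F3'H at -4.28 and DFR at 3.14 lie at the ends, the interval of CHI crosses the lower 2-fold line, and the interval of PAP1 crosses 0.

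The MYB genes did not follow one direction. MYB12, an activator of the flavonol genes (AT2G47460, chromosome 2, 19476326 to 19479597, plus strand, 3 exons), gave 2032 reads (13.5 RPKM) in mp clv3, against 1046 (7.07 RPKM) in WT, 1.92-fold higher (1.72 to 2.13). MYB12 thus stood opposite to the early enzyme genes, and its log2 ratio of 0.94 became 1.03 with TMM scaling, past the 2-fold line. MYB11, its close relative (AT3G62610, chromosome 3, 23154630 to 23156585, plus strand, 3 exons), had 49 reads in mp clv3, against 88 in WT, or 0.381 RPKM in mp clv3, against 0.693 RPKM in WT. Its difference was 1.82-fold lower (1.07 to 3.04), under 2-fold, and 495 of its bases are shared with the opposite-strand gene AT3G62615. PAP1 (MYB75), an activator of the late anthocyanin genes (AT1G56650, chromosome 1, 21233555 to 21235292, minus strand, 3 exons), had 75 reads in mp clv3, against 100 in WT. PAP1 was at 0.794 RPKM in mp clv3, against 1.07 RPKM in WT, a log2 ratio of -0.44 (-1.06 to 0.22) that counting error alone could span, and its FDR of 0.0542 in the authors' deposited table missed the threshold. DFR and LDOX were thus called higher where PAP1 was not called.

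The most abundant transcripts, CHS, FLS1, F3H and CHI, kept their order between genotypes, whereas F3'H and PAP1 stood 2 places lower in mp clv3 and LDOX and DFR 2 places higher. In mp clv3 it ran CHS, FLS1, F3H, CHI, MYB12, LDOX, F3'H, DFR, PAP1 and MYB11. Within that order the counting intervals did not separate F3H from CHI, F3'H from DFR, or DFR from PAP1. In WT it ran CHS, FLS1, F3H, CHI, F3'H, MYB12, PAP1, LDOX, MYB11 and DFR, and neither PAP1 and LDOX nor LDOX and MYB11 were separated. DFR was thus the lowest of the 10 transcripts in WT, whereas MYB11 was the lowest in mp clv3.

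In the upstream windows, the G-box, the ACGT core and ACCNAAC were each found before genes of both directions. ACCNACC was found before only 2 genes, too few to compare directions. Among the 250-base windows of 27443 protein-coding genes, 6.49% held a G-box, 44.1% an ACGT core, 6.10% the motif ACCNACC and 14.5% the motif ACCNAAC. Every G-box holds an ACGT core, which was found before 5 of the 10 genes. Of the 10 genes, 4 held a G-box, namely CHS and F3H, which were lower, and DFR and MYB12, which were higher. The 2 genes with ACCNACC were DFR and MYB12, both higher in mp clv3, though MYB12 was not called. ACCNAAC was found before 5 of the 10. A MYB motif of either kind was found before 6 of the 10 genes, against 19.3% of all windows. Of these, DFR, LDOX and MYB12 were higher in mp clv3, and F3'H, FLS1 and PAP1 were lower, PAP1 within counting error. The F3H window lies partly in AT3G51238. A match of letters describes the window and is not evidence of binding. A window without a match does not show that the gene lacks a site elsewhere.

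**Figure D3:**
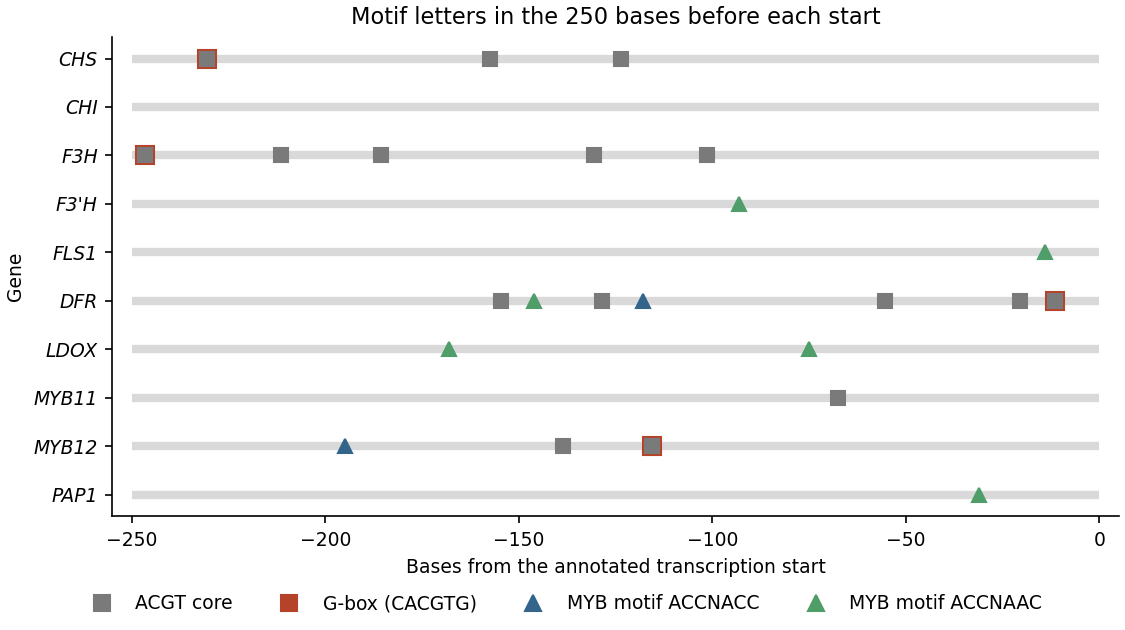
Motif letters in the 250 bases before the annotated start of each gene, by distance from the start. Grey squares are ACGT cores, framed in red where they form a G-box, and triangles are the MYB motifs ACCNACC (blue) and ACCNAAC (green). DFR has both MYB motifs and 5 ACGT cores, and CHI has no match.

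Other genes of flavonoid metabolism were examined in 9 lists by role, 74 genes in all, of which 16 were called higher and 22 lower by the same rule. The shares of all models called by it, 9.85% higher and 21.3% lower, are the background for each list. By the authors' FDR alone, 34 of the 74 were higher (31.3% of all models) and 31 lower (43.5%). Enzymes of the phenylpropanoid entry differed in both directions, with 1 of 8 called higher (9.85% of all models) and 3 lower (21.3%), and a median log2 ratio of -0.41. C4H, cinnamate 4-hydroxylase, was at 465 RPKM in mp clv3, against 89.8 RPKM in WT, 5.18-fold higher (5.06 to 5.31). By contrast PAL4, a phenylalanine ammonia-lyase gene, was at 0.363 RPKM in mp clv3, against 6.07 RPKM in WT, 16.7-fold lower (12.4 to 22.5). 4CL3, a 4-coumarate:CoA ligase gene, was at 2.55 RPKM in mp clv3, against 20.1 RPKM in WT, 7.88-fold lower (6.89 to 9.0). The more abundant lyase genes PAL1 and PAL2, named after their values were seen, met neither call, and PAL2 stood at 34.3 RPKM in mp clv3, against 22.0 RPKM in WT.

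Of 7 flavonol glycosylation and methylation genes, 5 were called lower (21.3% of all models) and none higher (9.85%), with a median log2 ratio of -1.62. By the authors' FDR alone 6 of the 7 were lower (43.5% of all models) and 1 higher (31.3%). Adding 1 RPKM, or leaving out models under 1 RPKM in both genotypes, gave 3 lower genes, with medians of -0.84 and -1.07, and adding 5 RPKM gave 1. OMT1, an O-methyltransferase gene, was at 51.8 RPKM in mp clv3, against 159 RPKM in WT, 3.07-fold lower (2.96 to 3.19). The log2 ratio of OMT1 was the median of the list. The flavonol 7-O-rhamnosyltransferase gene AT1G06000 was 2.10-fold lower (2.01 to 2.20), a call lost under TMM and median-of-ratios scaling (log2 ratios of -0.98 and -0.97). UGT78D3, a flavonol glycosyltransferase gene with similar neighbours on the same chromosome, was 4.32-fold lower (3.61 to 5.19). An annotated opposite-strand gene shares 1580 bases with AT1G06000. UGT79B6, named after its value was seen, had 0 reads in mp clv3, against 113 in WT, at least 19.1-fold lower against the floor. AT5G28470, named likewise and also called lower, had 0 reads in mp clv3, against 26 in WT. The 2 genes not called, also named after their values were seen, were UGT78D1 and UGT78D2. UGT78D1 was at 39.9 RPKM in mp clv3, against 58.2 RPKM in WT, and UGT78D2 at 20.1 RPKM in mp clv3, against 15.8 RPKM in WT. Of 7 relatives of CHI and FLS1, 4 were called lower (21.3% of all models) and 1 higher (9.85%), and the median of the 5 above the floor was -2.27. Of the 4, AT5G66220 had 0 reads in mp clv3, against 38 in WT, and FLS3 had 4 reads in mp clv3, against 30 in WT. An annotated same-strand gene shares 998 bases with AT5G66220. The lower count was 2 where models under 1 RPKM in both genotypes were left out, with a median of -1.06, and 1 with 1 RPKM added, with a median of -0.62. CHIL, a chalcone isomerase-like gene, was at 15.2 RPKM in mp clv3, against 73.1 RPKM in WT, 4.82-fold lower (4.46 to 5.22), beside 2.02-fold for CHI. FLS2 was 2.09-fold lower (1.76 to 2.48) and FLS6 2.69-fold higher (1.91 to 3.79), both at under 8 RPKM in each genotype. Under TMM and median-of-ratios scaling the log2 ratio of FLS2 was -0.97, short of 2-fold, and with 1 RPKM added that of FLS6 was 0.91.

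Of 8 anthocyanin modification and transport genes, 2 were called higher (9.85% of all models), 1 lower (21.3%) and 5 neither. By the authors' FDR alone 4 of the 8 were higher (31.3% of all models) and 1 lower (43.5%). The median of their log2 ratios was 0.19. UGT84A2, which encodes a sinapate glucosyltransferase, was at 47.5 RPKM in mp clv3, against 6.80 RPKM in WT, 6.98-fold higher (6.41 to 7.61). SCPL10, a serine carboxypeptidase-like gene, was 2.53-fold lower (2.16 to 2.97). Named after their values were seen, UGT79B1, an anthocyanin glycosyltransferase gene, was 2.78-fold higher (1.72 to 4.45), and GSTF12, the glutathione S-transferase gene of vacuolar deposition, was at 3.46 RPKM in mp clv3, against 3.99 RPKM in WT. UGT79B1 was at 0.934 RPKM in mp clv3, against 0.336 RPKM in WT. The higher count was 1 with models under 1 RPKM in both genotypes left out. It was also 1 with 1 RPKM added or with the whole interval beyond 2-fold. Of 5 proanthocyanidin genes 3 were called lower (21.3% of all models) and none higher (9.85%), and the median log2 ratio of the 4 above the floor was -2.43. With 0.1 and 1 RPKM added, the lower count was 1 and 0 and the median -0.84 and -0.47. AHA10, a proton pump gene, was 5.69-fold lower (3.90 to 8.59), at 0.218 RPKM in mp clv3, against 1.24 RPKM in WT. The other called genes, BAN and TT12, rest on few reads, 2 each in mp clv3, against 10 and 16 in WT, and the interval of BAN (0.568-fold to 240-fold lower) includes equality. TT15, a sterol glucosyltransferase gene and the most abundant of the list, was at 8.09 RPKM in mp clv3, against 15.2 RPKM in WT.

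Among the activators, the relatives of PAP1 were higher, and MYB111, EGL3 and TT2 were lower in mp clv3. MYB111, the flavonol activator next to MYB11 and MYB12, gave 302 reads (2.23 RPKM) in mp clv3, against 2138 (16.0 RPKM) in WT, 7.18-fold lower (6.05 to 8.57). MYB111 thus lay on the side of the early and flavonol enzyme genes and MYB12 on the other. MYB113 had 126 reads in mp clv3, against 8 in WT, 15.5-fold higher (5.77 to 58.7). MYB114 had 167 reads in mp clv3, against 0 in WT, at least 27.4-fold higher against the floor of 6 reads. PAP2, named after its value was seen, had 97 reads in mp clv3, against 20 in WT, 4.78-fold higher (2.42 to 10.7). These genes neighbour each other on chromosome 1 and are similar in sequence, so reads may have been divided among them. MYB114 was the most abundant of them in mp clv3, at 3.85 RPKM. Over all 11 activators, 5 were called higher (9.85% of all models), 3 lower (21.3%) and 3 neither, with a median log2 ratio of 0.79 over the 10 above the floor. The higher count was 3 with 0.1 RPKM added or with the whole interval beyond 2-fold, 2 with 1 RPKM added and 0 with 5 RPKM. TTG1, the WD40 partner and the most abundant of the list, was at 42.7 RPKM in mp clv3, against 31.6 RPKM in WT. Named after their values were seen, the bHLH partner genes GL3 and EGL3 differed in opposite directions, GL3 being 2.12-fold higher (1.59 to 2.82) and EGL3 3.52-fold lower (3.10 to 4.00). TT2, also named after its value was seen, had 2 reads in mp clv3, against 54 in WT, 27.4-fold lower (4.51 to 1121).

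Genes listed as repressors of the pathway had 5 of 11 members called higher (9.85% of all models) and 2 lower (21.3%). Among the 5, AT2G44130, named after its value was seen, shares 1445 bases with the opposite-strand gene AT2G44140. AT2G44140 had 14755 reads in mp clv3, against 7025 in WT. The median log2 ratio of the 11 listed repressors was 0.84. The higher group was led by kelch-repeat F-box genes, a family with members that target phenylalanine ammonia-lyase or chalcone synthase for degradation. KFB01 was at 116 RPKM in mp clv3, against 27.2 RPKM in WT, 4.28-fold higher (4.08 to 4.48), KFB20 was 3.54-fold higher (3.42 to 3.66), and the kelch-repeat F-box gene AT1G23390 was 3.46-fold higher (3.30 to 3.62). KFB01 and KFB20 also belong to the KISS ME DEADLY family, which acts on type-B cytokinin response regulators. Named after their values were seen, LBD37 was 2.32-fold lower (2.11 to 2.56) and SPL9 2.50-fold lower (2.39 to 2.62).

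**Figure D4:**
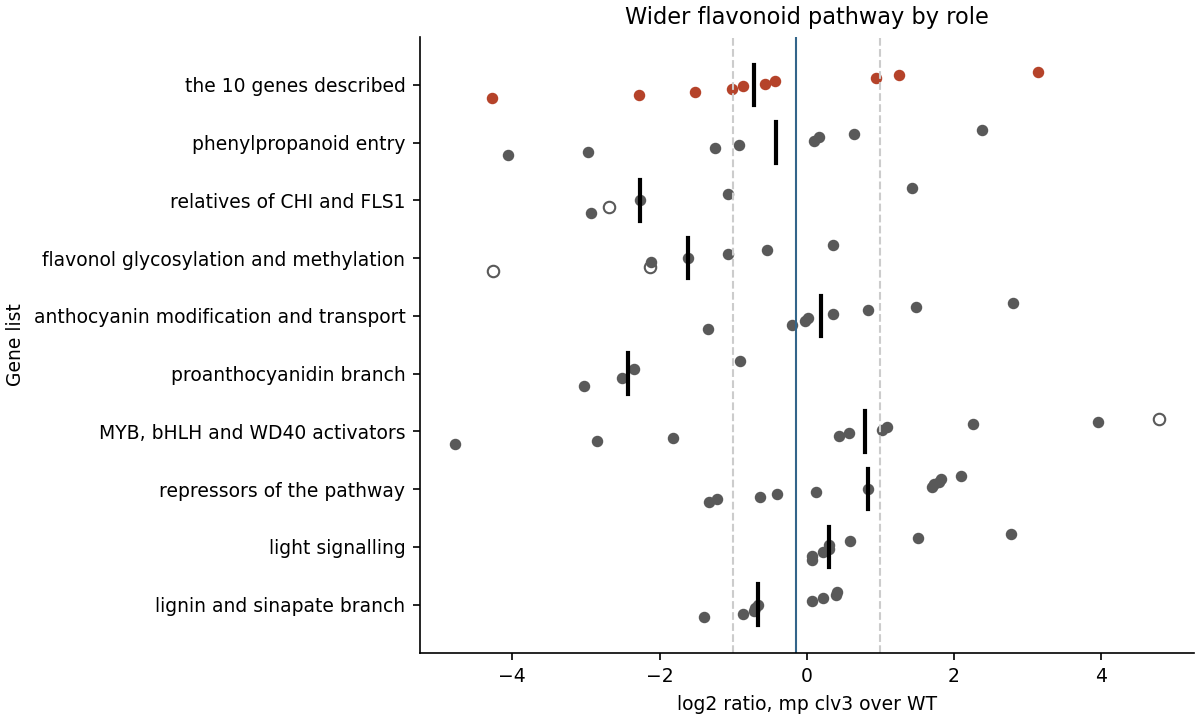
The log2 ratio of mp clv3 over WT for the 10 genes (red) and for the genes of the wider lists (grey) above the floor of 6 reads. Open circles are genes with 0 reads in 1 genotype, drawn at their bound, black bars are list medians, the blue line is the median of all models (-0.15) and dashed lines mark 2-fold. Flavonol glycosylation and methylation genes lie mostly left of 0, with a median of -1.62, and the medians of activators and repressors lie right of it.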

How the data were processed

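Poly(A) RNA was sequenced from strand-specific libraries as paired reads of 100 bases, per the labels' protocols. CASAVA 1.7, BWA and TAIR10 are named in the submitters' processing notes, with no roles or counting rules. The deposited read numbers, handled as estimated counts, are whole, with 0.5 in place of 0 (read here as 0). The deposited RPKM values are these numbers per model length and total, as tested on the values (whole lengths within 0.01 base), and the deposited log2 ratio is that of the RPKM columns. The deposited FDR, an adjusted p-value, comes from an unstated test, so it is no check against replicate spread. Which replicates a column holds is unstated. Of 27323 models, 1 with shifted cells was left out.

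Ratios are read numbers over genotype totals, with Clopper-Pearson 95% intervals on read pairs (reads divided by 2, rounded up), and RPKM levels have exact Poisson intervals (scipy 1.17.1). Both cover counting error only, since there is 1 value per genotype. Duplicate molecules are not marked, so the intervals may be too narrow even for that error. Genes with 0 reads were set against a floor of 6 reads, and models at or under it in both genotypes got no ratio. The computation was checked on simulated counts drawn with counting error only. That check covers the arithmetic and cannot show how the intervals fare with replicate spread or duplicate molecules. The design foresaw edgeR on replicate columns, which could not be run; TMM (edgeR 4.0.16) and median-of-ratios factors (DESeq2 1.42.0) served as alternatives. Positions and upstream windows are from RefSeq TAIR10.1. For some genes the RefSeq span is longer than the counted model, as for the 1-exon gene KFB01 (1721 against 1539 bases). The annotated starts may therefore differ from those of the counted models. The 10 genes and all lists were chosen with earlier results of these data known. Of 114 listed genes, 113 had a model and 102 a matching RefSeq symbol, the others being called by RefSeq name or locus. Named genes were the 10, up to 3 called genes per list with the largest ratio and at least 1 RPKM in the higher genotype, and the most abundant in mp clv3.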

Additional observations from a re-analysis of the deposited data

How the results depend on the processing

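The median log2 ratio of the 10 genes stayed negative under every alternative run, from -0.79 to -0.32, and 3 to 5 of them were called lower. The count of 2 higher genes was 3 under TMM scaling, median-of-ratios scaling and a 1.5-fold threshold, and became 0 with a pseudocount of 1 RPKM and 0 with 5 RPKM, 1 where models under 1 RPKM in both genotypes were left out (DFR is among them) and 1 where the whole interval had to lie beyond 2-fold. Of the wider lists, 16 genes were called higher, but 8 with a pseudocount of 5 RPKM, and 22 lower, but 13 and 6 with pseudocounts of 1 and 5 RPKM. A pseudocount shrinks ratios of low genes by construction. With 1 RPKM added, FLS1 exceeded DFR 16.0-fold in mp clv3 and 129-fold in WT. The median of the anthocyanin modification list changed sign, to -0.0068, when models under 1 RPKM in both genotypes were left out. TMM and median-of-ratios scaling raised every log2 ratio by 0.09 and 0.10. No paired analysis was possible because the table has 1 column per genotype with no replicate number; for the same reason, leaving out a replicate was not run. DFR, MYB11 and PAP1 rest on 14 to 125 reads per genotype, which limits their precision.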

Other observations

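Light signalling and the lignin and sinapate branch, which border the flavonoid pathway, were also listed by role. Of 8 light signalling genes, 2 were called higher in mp clv3 (9.85% of all models) and none lower (21.3%), with a median log2 ratio of 0.30. HY5, a bZIP factor that binds ACGT-containing elements of light-responsive promoters, was at 23.0 RPKM in mp clv3, against 8.03 RPKM in WT, 2.86-fold higher (2.54 to 3.23). Its relative HYH was at 14.3 RPKM in mp clv3, against 2.09 RPKM in WT, 6.85-fold higher (5.18 to 9.07). UVR8, the ultraviolet-B receptor gene, was at 86.2 RPKM in mp clv3, against 81.8 RPKM in WT. Of 9 lignin and sinapate genes, CAD4, a cinnamyl alcohol dehydrogenase gene, was the 1 called lower, by 2.64-fold (2.40 to 2.91), and none was called higher, against 21.3% and 9.85% of all models; the median log2 ratio of the list was -0.66. CCoAOMT1, a caffeoyl-CoA methyltransferase gene, was at 87.5 RPKM in mp clv3, against 143 RPKM in WT.

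Named after their values were seen, LAP5 and LAP6 encode chalcone synthase-related polyketide synthases of sporopollenin formation. LAP5 had 6 reads in mp clv3, against 14174 in WT, and LAP6 was 9.56-fold lower (8.92 to 10.2), both larger falls than the 1.48-fold of CHS.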
